A study of Mus musculus with 6 samples.

Results

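The genes described here were 9 myelin and mature oligodendrocyte genes, Mbp, Mag, Mog, Mobp, Cnp, Opalin, Ermn, Cldn11 and Ugt8a, chosen by their symbols among the 21006 genes in the files. All 9 were found, each under 1 Ensembl identifier, and all 9 passed the filter on low values. RNA-seq of prefrontal cortex from wild type male C57BL/6 mice aged 18 months gave the data. The age is that of the age label, and the sample titles carry a code with another number whose meaning is not given. The PND group (n = 3), a model of postoperative neurocognitive disorder, breathed 1.5% isoflurane for 30 minutes and then had an exploratory laparotomy, in which the abdomen is opened and its organs are inspected, under the same anesthetic. Its wound was treated with 2.5% lidocaine cream for 3 days and with povidone iodine. The CON group (n = 3) had no anesthesia, operation or wound care, so the effects of anesthesia, surgery and wound care cannot be told apart. Both groups went through the same behavioral tests, and all animals were put under isoflurane and perfused with saline before the cortex was taken. This was soon after the last of the tests, a maze, and days after the operation of the PND group. The 3 animals per group were drawn at random from 13.

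Oligodendrocytes wrap axons in the central nervous system with sheets of membrane. In the compact part of the sheath the cytoplasmic faces of the membrane are pressed together, and proteins such as myelin basic protein hold them. Other proteins sit on the outer surface of the sheath, on the side that faces the axon, in channels that keep their cytoplasm, or in the tight junctions that seal the layers. The sheath is also rich in galactolipids, which the oligodendrocyte makes itself.

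Levels are given in FPKM, fragments divided by exon length and by the depth of the library. FPKM do not adjust for the base composition of a transcript, so levels of different genes can be compared only roughly. Differences between the groups are log2 fold changes, PND minus CON, on the log2(FPKM + 0.1) scale, with the SE and 95% interval of limma. The cut-off was an absolute log2 fold change above 1 with an unadjusted p below 0.05, both from limma. These are the thresholds of the study, which applied them to a fold of the FPKM themselves and worked with edgeR as well as limma, so its calls can differ from those made here.

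Promoters are shown first for 4 genes, the member with the highest level (Mobp), the member that varied most between animals (Cnp), and the pair with the smallest p in the comparison of the groups (Opalin and Mog). Each window is the 250 bases before the start site, 5′ to 3′ on the strand of the gene, from RefSeq on GRCm38.p6. Capitals mark the words ACAAAG and ACAATG, together with the words TCAAAG and TCAATG, and the reverse complements of these, which are short forms of the site bound by SOX factors such as SOX10, and the words CTGGCAC and CTGGTAC and their reverse complements, which are forms of the site bound by MYRF, a transcription factor of myelinating oligodendrocytes. No word of the first set overlapped a word of the second.
Mobp promoter, chr9:120149492-120149741, plus strand: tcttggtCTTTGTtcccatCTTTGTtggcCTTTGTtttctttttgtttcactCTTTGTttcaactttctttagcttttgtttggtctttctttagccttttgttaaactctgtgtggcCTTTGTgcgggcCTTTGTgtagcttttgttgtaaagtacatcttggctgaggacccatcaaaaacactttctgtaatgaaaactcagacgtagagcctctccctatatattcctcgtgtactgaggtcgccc
Cnp promoter, chr11:100574689-100574938, plus strand: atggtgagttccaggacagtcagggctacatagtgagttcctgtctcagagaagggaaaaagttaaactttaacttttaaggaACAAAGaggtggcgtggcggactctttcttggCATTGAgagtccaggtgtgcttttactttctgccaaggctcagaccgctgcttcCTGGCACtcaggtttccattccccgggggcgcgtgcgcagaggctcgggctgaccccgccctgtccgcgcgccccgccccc
Mog promoter, chr17:37023399-37023648, minus strand: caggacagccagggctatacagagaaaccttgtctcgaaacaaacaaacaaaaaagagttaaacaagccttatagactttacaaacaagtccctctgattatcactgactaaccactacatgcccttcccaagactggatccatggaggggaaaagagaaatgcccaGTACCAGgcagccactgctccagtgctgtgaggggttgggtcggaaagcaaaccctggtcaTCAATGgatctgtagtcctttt
Opalin promoter, chr19:41077114-41077363, minus strand: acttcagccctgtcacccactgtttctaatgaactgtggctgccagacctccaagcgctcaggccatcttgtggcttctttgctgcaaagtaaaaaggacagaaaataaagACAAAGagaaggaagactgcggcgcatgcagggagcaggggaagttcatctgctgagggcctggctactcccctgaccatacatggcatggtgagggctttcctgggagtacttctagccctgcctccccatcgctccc
The Mobp window held 6 words of the SOX kind and none of the MYRF kind. The Cnp window held 2 SOX words and 1 MYRF word, the Mog window 1 of each, and the Opalin window 1 SOX word. RefSeq start sites were at hand for 8 of the 9 members, and 7 of these 8 had a SOX word in at least 1 window. Of all 32851 mouse windows of this length, 39.36% held such a word. A MYRF word was found for 3 of the 8, Mag, Mog and Cnp, against 5.927% of all windows. Mag was searched in 3 windows. The Cldn11 window held neither. These are matches of letters and not bound sites.

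The depth inferred from the spacing of the lowest FPKM was 7192493 to 9386175 fragments per animal. This is an estimate after the authors' scaling and not a count of fragments sequenced. Libraries differed along GC content, the share of G and C bases in a transcript, and CON replicates 1 and 2 are compared along it below. Defining markers of the striatum, a region that adjoins the frontal cortex, were present in all 6 animals. The 9 striatal genes summed to 142.9 FPKM in CON replicate 2 and 357.8 FPKM in CON replicate 3, with the PND animals between 225.9 and 272.7 FPKM. The part of this in the values below was not tested. Neuronal markers were high in every animal, and their sum ranged from 1152 to 1234 FPKM.

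In each of the 6 animals Mobp had the highest level of the 9 genes, Ermn followed, and Cldn11 came next. Mobp alone made up between 50.1% and 59.8% of the FPKM of the 9 genes. Mbp, the gene for myelin basic protein, followed Cldn11 by its mean, and its level was between 5.25 and 11.9 FPKM. Mobp was 9.43 to 23.2 times as high as Mbp within an animal. The reason for the low level of Mbp beside Mobp in these files was not tested.

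**Figure D1:**
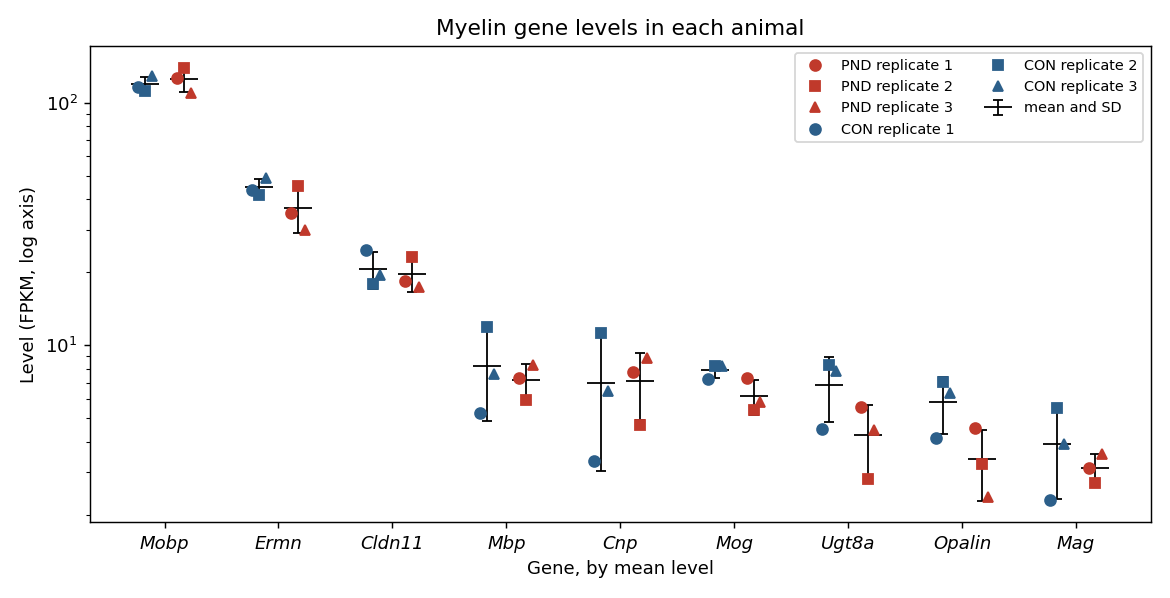
Level of each gene in each animal, in FPKM on a log axis, with genes ordered by mean level. Red symbols are PND animals and blue symbols are CON animals, the marker shape gives the replicate number, and black bars give the mean and SD of 3 animals. Mobp lay between 110.0 and 139 FPKM and Mag between 2.32 and 5.50 FPKM, and the red and blue ranges overlapped for every gene.

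The first places in this order were separate. Mobp exceeded Ermn, Ermn exceeded Cldn11 and Cldn11 exceeded Mbp in 6 of 6 animals. From Mbp downward neighbours crossed between animals. Mbp was above Cnp in 4 of 6 animals, Cnp was above Mog in 3 of 6, and Mog above Ugt8a, Ugt8a above Opalin and Opalin above Mag in 5 of 6 each.

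Compared with the CON group, none of the 9 genes passed the cut-off in the PND group, where 1.33% of the 18185 genes tested passed it (241 genes, 0.841% higher and 0.484% lower in PND). Opalin alone had an unadjusted p below 0.05, and 3.13% of all genes did (569 genes). The adjusted p was 0.9999 for each of the 9 in limma, and over all genes 2 had an adjusted p below 0.05 (0.011%). The ranges of the groups overlapped for all 9, while 7.66% of all genes had groups without overlap. The fitted difference was below 0 for 7 of the 9, against 47.6% of all genes, and the median of the 9 was -0.24 against 0.01 over all genes tested. The median was -0.41 without CON replicate 1 and -0.17 without CON replicate 2. An exact permutation test of 3 animals against 3 cannot give a two-sided p below 0.1, and for the 9 genes it gave 0.2 to 0.9, with 0.2 for Opalin, Mog and Ugt8a. In bulk tissue, fewer oligodendrocytes and less RNA per oligodendrocyte cannot be told apart.

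**Figure D2:**
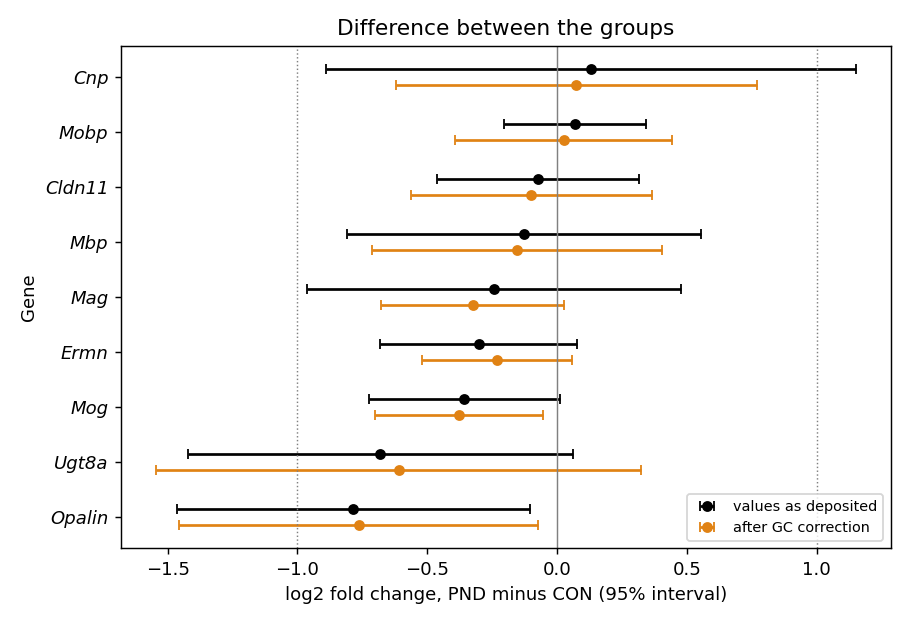
Difference between the groups for each gene as log2 fold change, PND minus CON, on the horizontal axis, with the 95% interval of limma. Black marks are the values as deposited, orange marks are values after a correction for GC content, and dotted lines mark the fold of the cut-off. Every black interval but that of Opalin (-1.46 to -0.11) includes 0.

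Mobp and Mbp encode basic proteins of the compact sheath. Mobp (GRCm38 chr9:120149707-120181484, plus strand) was at 127, 139 and 110.0 FPKM in PND replicates 1 to 3 and at 116, 112 and 129 FPKM in CON replicates 1 to 3. The PND animals held both the highest and the lowest value. Its log2 fold change was 0.07 (SE 0.12, 95% interval -0.21 to 0.34), the narrowest interval of the 9 genes, with 5957 to 7679 estimated fragments behind each value. Of its exons 79 bases are shared with Gm38642, a transcript on the same strand.

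Mbp (GRCm38 chr18:82475146-82585637, plus strand) was at 7.32, 5.97 and 8.32 FPKM in the PND group and at 5.25, 11.9 and 7.61 FPKM in the CON group. CON replicates 1 and 2 were the lowest and the highest of the 6, and the PND animals lay between them. Its log2 fold change was -0.13 (SE 0.29, 95% interval -0.81 to 0.56). It was -0.41 without CON replicate 1 and 0.17 without CON replicate 2, so its sign rested on which animal was counted.

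Cldn11, a claudin that forms the tight junctions between layers of myelin, (GRCm38 chr3:31149920-31164324, plus strand) was at 18.4, 23.1 and 17.4 FPKM in the PND group and at 24.8, 17.9 and 19.4 FPKM in the CON group. Its highest animal was CON replicate 1, the lowest for Mbp. A log2 fold change of -0.07 (SE 0.17, 95% interval -0.46 to 0.32) was found, and one of 0.06 without CON replicate 1.

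Mag and Mog are surface proteins of the immunoglobulin family, Mag on the membrane that faces the axon and Mog on the outermost layer of the sheath. Mag (GRCm38 chr7:30899176-30914873, minus strand) was at 3.12, 2.70 and 3.55 FPKM in the PND group and at 2.32, 5.50 and 3.93 FPKM in the CON group. As for Mbp, CON replicates 1 and 2 were the extremes. Between the groups the log2 fold change was -0.24 (SE 0.31, 95% interval -0.96 to 0.48). It was -0.57 without CON replicate 1 and 0.04 without CON replicate 2.

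Mog (GRCm38 chr17:37010743-37023398, minus strand) was at 7.32, 5.39 and 5.84 FPKM in the PND group and at 7.24, 8.22 and 8.24 FPKM in the CON group. PND replicate 1 exceeded CON replicate 1 by a small margin, and the other PND animals lay below all CON animals. The fitted log2 fold change was -0.36 (SE 0.16, 95% interval -0.73 to 0.01).

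Cnp, the cyclic nucleotide phosphodiesterase of the cytoplasmic channels of myelin, (GRCm38 chr11:100574904-100591729, plus strand) was at 7.73, 4.68 and 8.90 FPKM in the PND group and at 3.35, 11.3 and 6.48 FPKM in the CON group. Its highest and lowest values differed 3.36-fold, the widest range of the 9, and both were CON animals. With a log2 fold change of 0.13 and an SE of 0.44, the 95% interval ran from -0.89 to 1.15, an interval that takes in changes past the fold of the cut-off in the higher direction. It was -0.31 without CON replicate 1 and 0.55 without CON replicate 2. Its exons share 154 bases with Dnajc7 on the opposite strand, and whether counting used strand was not stated.

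Ermn encodes ermin, a protein of the oligodendrocyte that binds actin, (GRCm38 chr2:58045113-58052864, minus strand) and was at 35.0, 45.2 and 29.9 FPKM in the PND group and at 43.8, 41.5 and 48.8 FPKM in the CON group. PND replicate 2 lay among the CON animals and the other PND animals lay below them. This gave a log2 fold change of -0.30 (SE 0.16, 95% interval -0.68 to 0.08), which was -0.46 without PND replicate 2 and -0.17 without PND replicate 3. Its exons share 237 bases with Galnt5 on the opposite strand, a gene not analysed here.

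Opalin encodes a membrane glycoprotein found in mature oligodendrocytes (GRCm38 chr19:41061710-41077113, minus strand) and was at 4.55, 3.23 and 2.38 FPKM in the PND group and at 4.14, 7.08 and 6.35 FPKM in the CON group. The groups overlapped by 1 animal on each side, since PND replicate 1 exceeded CON replicate 1. Its log2 fold change was -0.78 (SE 0.29, 95% interval -1.46 to -0.11), short of the fold of the cut-off. The value was -1.02 with PND replicate 1 left out and -1.01 with CON replicate 1 left out, both past the cut-off. With PND replicate 2, PND replicate 3, CON replicate 2 or CON replicate 3 left out it was -0.78, -0.56, -0.63 and -0.71 in turn, and its unadjusted p was no longer below 0.05 in any of these 4 fits. Each value rested on 66 to 170 estimated fragments.

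Ugt8a encodes the enzyme that makes galactosylceramide, the main galactolipid of myelin (GRCm38 chr3:125865271-125938619, minus strand). It was at 5.56, 2.80 and 4.47 FPKM in the PND group and at 4.53, 8.30 and 7.84 FPKM in the CON group. CON replicate 1 lay among the PND animals and CON replicates 2 and 3 lay above all of them. A log2 fold change of -0.68 (SE 0.32, 95% interval -1.42 to 0.06) was fitted. It ran from -0.95 without CON replicate 1 to -0.41 without PND replicate 2.

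Summed over the 9 genes, the level was 216, 232 and 191 FPKM in the PND group and 211, 224 and 238 FPKM in the CON group, and the groups overlapped. Since Mobp took the larger part of this sum, it was also taken over the other 8 genes. That sum was 89.0, 93.0 and 80.8 FPKM in the PND group and 95.4, 112 and 109 FPKM in the CON group, so all PND animals lay below all CON animals. Leaving out Mobp was a choice made after the values were seen, and no test was run on either sum.

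The 9 genes did not vary together. Of the 36 pairs of members, 22 had a positive Pearson r across the 6 animals and 14 a negative one, with a median of 0.31. Mbp, Mag and Cnp went together, with r = 0.97 between Mbp and Mag and r = 0.95 between Mbp and Cnp. Mog went with Ugt8a (r = 0.92) and with Opalin (r = 0.90), while Cnp and Cldn11 went in opposite directions (r = -0.96). After the correction for GC content described below, r was 0.63 between Mbp and Mag, 0.91 between Mbp and Cnp and -0.97 between Cnp and Cldn11. The r between Mag and Cnp went from 0.88 to 0.33 and that between Mag and Ermn from -0.06 to 0.94, so which members went together depended on the correction. These values describe 6 animals, all genes of an animal come from the same library at the same depth, and no p is given.

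**Figure D3:**
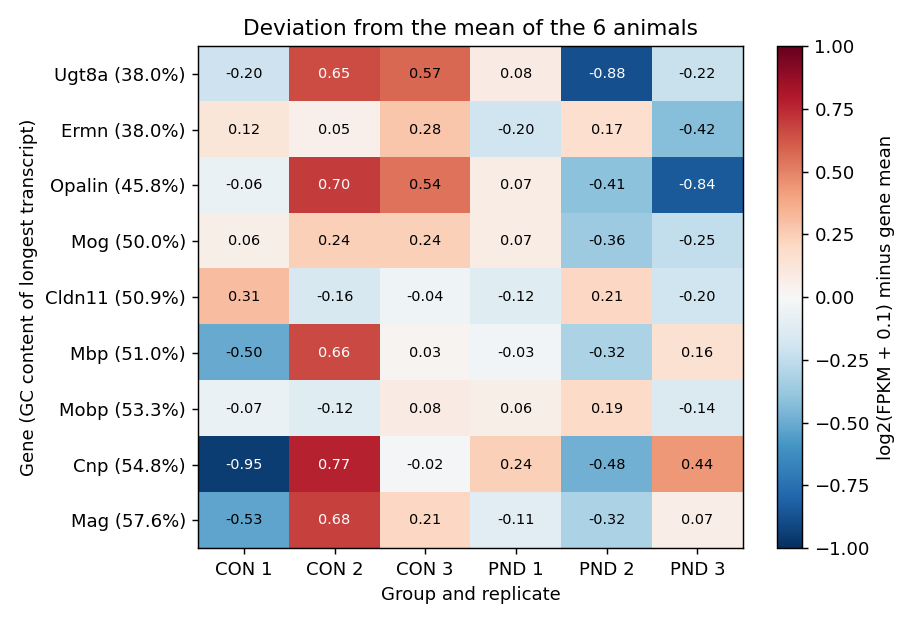
Deviation of each gene in each animal from its mean over the 6 animals, on the log2(FPKM + 0.1) scale, with genes as rows ordered by GC content and animals as columns. Red is above and blue below the mean. CON replicate 2 was highest and CON replicate 1 lowest for Mbp, Mag and Cnp, by 0.66 against -0.50, 0.68 against -0.53 and 0.77 against -0.95.

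The difference between CON replicates 1 and 2 ran along GC content over the whole transcriptome. Among the genes that averaged 1 FPKM or more, the median of CON replicate 2 minus CON replicate 1 was -0.34 on the log2 scale below 40% GC, 0.38 from 50 to 55% GC and 1.21 at 60% GC or more. The same difference was 1.21 for Mag (57.6% GC), 1.72 for Cnp (54.8% GC) and 1.16 for Mbp (51.0% GC). Outside the 9 genes it was 1.64 for Slc17a7 (56.6% GC), the vesicular glutamate transporter of cortical neurons. Other neuronal genes went either way. Syt1 (45.8% GC) was at 127.8 FPKM in CON replicate 1 and 117.6 FPKM in CON replicate 2, and Syp (45.4% GC) at 60.0 and 103.7 FPKM. Mobp (53.3% GC) and Cldn11 (50.9% GC) lay below the trend, at -0.05 and -0.46. Cnp and Mbp lay above it, past the upper quartile of 0.74 from 50 to 55% GC. Ugt8a, at 38.01% GC, differed by 0.86, above the median of its GC interval. After the GC correction described below, CON replicate 2 minus CON replicate 1 was 0.38 for Mag, 1.15 for Cnp and 0.97 for Mbp. It was then -0.46 for Mobp, -0.65 for Cldn11 and 1.26 for Ugt8a.

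**Figure D4:**
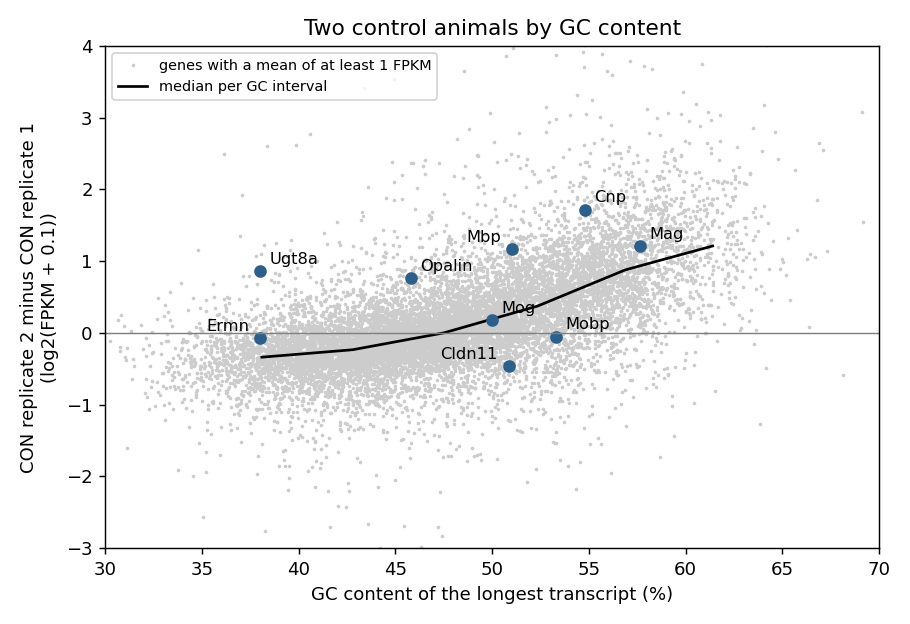
Difference between CON replicate 2 and CON replicate 1 for each gene, on the log2(FPKM + 0.1) scale, against the GC content of its longest transcript in percent. Grey points are genes that averaged 1 FPKM or more, the axes leave out a few points beyond their ends, the black line joins medians of GC intervals, and blue points are the 9 genes. The line climbs from -0.34 to 1.21, with Mag near it, Cnp, Mbp, Opalin and Ugt8a above it and Mobp and Cldn11 below it.

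After each library was corrected for its own trend with GC content, the SD within groups went from 0.45 to 0.15 on the log2 scale for Mag, from 0.70 to 0.47 for Cnp and from 0.45 to 0.36 for Mbp. It went up for 4 of the 9, from 0.14 to 0.27 for Mobp, from 0.48 to 0.64 for Ugt8a, from 0.23 to 0.30 for Cldn11 and from 0.43 to 0.45 for Opalin. The log2 fold change of Mag was then -0.32 (95% interval -0.68 to 0.03), that of Mog -0.38 (-0.70 to -0.05), that of Opalin -0.76 (-1.45 to -0.07) and that of Ugt8a -0.61 (-1.54 to 0.32), and none of the 9 passed the cut-off. The adjusted p of each was 0.9994 in this fit.

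The other genes of the lineage were taken from 4 lists with 56 genes, all in the files and all tested. Of these, 1 gene passed the cut-off, against 1.33% of all genes. The fitted difference was below 0 for 31 of the 56, and their median was -0.03. With an unadjusted p below 0.05, 4 of the 56 were lower and 2 were higher in PND, where 1.4% of all genes were lower and 1.73% higher at this level. None of the 56 had an adjusted p below 0.05 in limma. In bulk tissue, how much of the RNA of these genes came from cells outside the lineage cannot be told.

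Of 17 other proteins of the myelin membrane, Tmem88b was lower in PND at an unadjusted p below 0.05, with 12.1, 14.3 and 10.5 FPKM against 15.1, 17.6 and 15.3 FPKM in CON (log2 fold change -0.38, SE 0.15, 95% interval -0.72 to -0.04). Tspan2, a tetraspanin, stood first by p on the higher side without passing the cut-off, and its log2 fold change of 1.16 (SE 0.54) came with 10.1 FPKM in PND replicate 3 and 1.35 to 2.88 FPKM in the other animals.

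None of the 10 lipid enzymes of myelin had an unadjusted p below 0.05 in limma, and Elovl1 and Elovl7, both elongases of long fatty acids, had the smallest p of each direction with log2 fold changes of 0.25 (SE 0.39) and -0.29 (SE 0.22). None of the 10 transcription factors of the lineage did so either. Their median log2 fold change was -0.01. Olig2, which marks the whole lineage, was at 3.25, 2.39 and 2.23 FPKM in the PND group and at 2.41, 3.12 and 2.11 FPKM in the CON group (log2 fold change 0.04, SE 0.23). Sox10, which drives myelin genes and is rich in GC, was at 0.443 FPKM in CON replicate 1 and 4.34 FPKM in CON replicate 2, and its log2 fold change was -0.03 (SE 0.76). St18 (log2 fold change -0.39, SE 0.24) and Nkx6-2 (0.33, SE 0.37) had the smallest p of this list in each direction.

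The 19 other genes of mature oligodendrocytes held most of the small p-values. Car2, a carbonic anhydrase, was at 18.3, 19.6 and 20.1 FPKM in the PND group and at 24.2, 31.8 and 30.3 FPKM in the CON group. Every PND animal was below every CON animal (log2 fold change -0.56, SE 0.13, 95% interval -0.87 to -0.25), and the difference was short of the fold of the cut-off. Ppp1r14a, an inhibitor of a protein phosphatase, fell past the cut-off, from 3.77, 4.85 and 4.71 FPKM in CON to 2.34, 1.19 and 3.21 FPKM in PND (log2 fold change -1.05, SE 0.34, 95% interval -1.84 to -0.25, adjusted p = 0.9999 in limma). The ratio of its mean FPKM, CON over PND, was 1.98, below the fold of 2 when the fold is taken on FPKM. It rested on 13 to 54 estimated fragments per animal, and it did not pass the cut-off with a pseudocount of 1 FPKM (-0.79) or without PND replicate 2 (-0.67), CON replicate 2 (-0.98) or CON replicate 3 (-1.003, unadjusted p above 0.05). After the GC correction its log2 fold change was -1.14 (SE 0.26), and it passed the cut-off.

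Hapln2, a link protein of the matrix at nodes of Ranvier, was higher in every PND animal, with 4.13, 5.83 and 3.20 FPKM against 2.67, 2.27 and 2.14 FPKM in CON (log2 fold change 0.83, SE 0.24, 95% interval 0.27 to 1.40). After the GC correction it was 0.75 (SE 0.38), and its unadjusted p was no longer below 0.05. Apod, a secreted lipocalin, had a log2 fold change of 0.55 (SE 0.22) and overlapping groups, and Sept4, a septin, one of -0.31 (SE 0.13), both at an unadjusted p below 0.05. Genes of this list were therefore found on both sides, and the list had a median of -0.07.

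**Figure D5:**
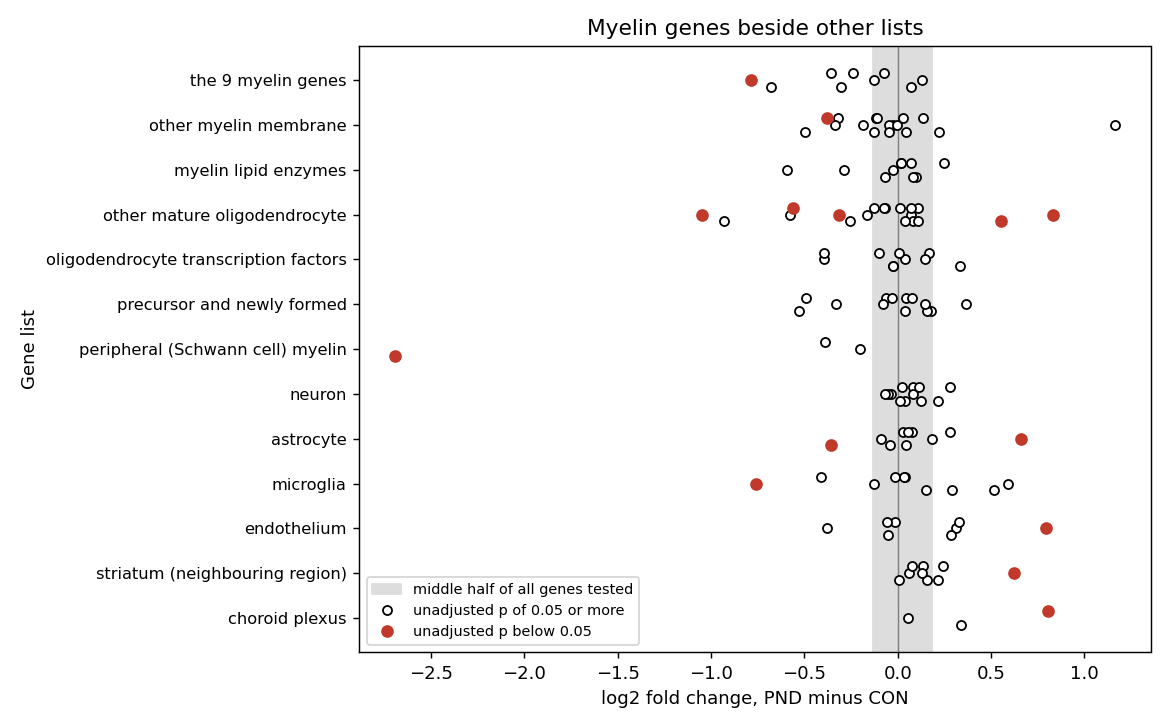
Log2 fold change, PND minus CON, of every tested gene in each list, 1 row per list. Filled red points have an unadjusted p below 0.05 in limma, open points do not, and the grey band runs from the lower to the upper quartile of all genes tested (-0.13 to 0.18). The 9 myelin genes lie between -0.78 and 0.13, and the other lists of the lineage have points on both sides of 0.

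Earlier stages of the lineage and other cell types were read in the same way. None of the 13 genes of precursors and newly formed oligodendrocytes had an unadjusted p below 0.05 in limma. Enpp6, a marker of newly formed oligodendrocytes, was below the CON range in all 3 PND animals, at 0.956, 0.758 and 0.770 FPKM against 1.18, 1.19 and 1.22 FPKM (log2 fold change -0.49, SE 0.23), and Lhfpl3, a precursor gene, had a log2 fold change of 0.37 (SE 0.22). None of the 12 neuronal genes had an unadjusted p below 0.05, and Syp (log2 fold change 0.28, SE 0.24) and Syt1 (-0.07, SE 0.10), both of synaptic vesicles, had the smallest p in each direction.

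Schwann cells, which make myelin outside the brain, were checked with 7 genes, of which 5 were in the files used and 3 passed the filter. Prx, which is particular to their myelin, was at 0 to 0.04 FPKM. Pmp22, which is also made in other cells, was at 0.05, 0.11 and 1.80 FPKM in PND and at 2.43, 2.92 and 2.04 FPKM in CON (log2 fold change -2.69, SE 0.88, adjusted p = 0.9999 in limma), and fell past the cut-off. Its lowest value rested on 1 estimated fragment, and the log2 fold change was -1.21 with a pseudocount of 1 FPKM and -3.37 with one of 0.01 FPKM. It did not pass without PND replicate 1 (-1.998) or PND replicate 2 (-2.25), where its unadjusted p was above 0.05. The summed level of the list was 4.81 to 7.93 FPKM in PND and 7.11 to 14.3 FPKM in CON.

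Of 28 genes of astrocytes, microglia and endothelium, 5 had groups without overlap, where 7.66% of all genes did, and 4 had an unadjusted p below 0.05, where 3.13% did. Their part in the values of the members was not tested. Among 10 astrocyte genes, Gfap, the filament protein of astrocytes, had a log2 fold change of 0.66 (SE 0.15) and Aqp4, their water channel, one of -0.36 (SE 0.13), and the list summed to 431.7 to 571.4 FPKM in PND and 366.6 to 680.2 FPKM in CON. Among 10 microglial genes, P2ry12, a purine receptor of resting microglia, had a log2 fold change of -0.76 (SE 0.21) and C1qa one of 0.59 (SE 0.45), with a sum of 54.95 to 65.89 FPKM in PND and 52.1 to 70.9 FPKM in CON. Among 8 endothelial genes, Ly6c1 had a log2 fold change of 0.79 (SE 0.21) and Tek one of -0.38 (SE 0.18), with a sum of 32.6 to 41.7 FPKM in PND and 30.2 to 33.0 FPKM in CON. Gfap, Aqp4, P2ry12 and Ly6c1 had an unadjusted p below 0.05, and none of the 6 passed the cut-off.

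All 9 striatal genes had a fitted difference above 0, from 0.01 to 0.62, and Pde10a alone had an unadjusted p below 0.05 in limma. Choroid plexus, the tissue in the ventricles that makes cerebrospinal fluid, was represented by 7 genes in the files used, of which 3 passed the filter, and Clic6 had a log2 fold change of 0.80 (SE 0.30). Its unadjusted p was below 0.05. Ttr, the most abundant transcript of choroid plexus, was at 0 to 0.21 FPKM, and the list summed to 2.59 to 3.34 FPKM in PND and 1.48 to 3.06 FPKM in CON.

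The mean deviation of the 9 genes, with each gene centred on the log2 scale, was 0.01, -0.24 and -0.16 in the PND animals and -0.20, 0.39 and 0.21 in the CON animals. Of 12314 other genes with at least 1 FPKM, the 10 whose levels went most closely with this mean across the 6 animals were Jmjd6, Ergic2, Dag1, Ccdc22, Chrna7, Nat10, Ntrk3, Spryd4, Zbtb21 and Agtpbp1, with Pearson r from 0.97 to 0.99. With 6 animals and so many genes, values of this size describe likeness in these libraries and carry no p. No gene of the 4 lineage lists was among the 10, which says little, since these lists hold only 56 genes. Dag1, the gene for dystroglycan, was at 2.49, 2.00 and 2.09 FPKM in the PND group and at 2.04, 3.26 and 2.70 FPKM in the CON group.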

How the data were processed

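The prefrontal cortex of 6 mice was measured by RNA-seq, with 3 animals in each group. Groups came from the treatment labels and replicate numbers from the titles. The deposited values were FPKM per gene, made by the authors by removing ribosomal RNA, filtering reads with Seqtk, aligning with Hisat2, counting fragments with StringTie and scaling by TMM (trimmed mean of M values). The submitters' processing notes name Bowtie 0.12.2 and the builds mm8 and mm9 without saying for which data. The annotation and the use of strand were not given in the sources used here, so reads in overlapping exons could have been divided in either way.

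Of 21006 identifiers, 20866 had a symbol. GENCODE release M21 (GRCm38) supplied coordinates, exon lengths and GC content. Low values moved in steps, and the step of 1 fragment gave the depth. Between 41.3% and 44.7% of these lay within 0.05 of a whole fragment, against 10% without steps, so fragment numbers are estimates and no count test was run. No pair of the 15 sample pairs was identical.

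The groups were compared with limma 3.58.1 (R 4.3.3), with an intensity trend and no covariate, on log2(FPKM + 0.1), a scale that understates changes of low genes. The fit covered 18185 genes averaging at least 0.1 FPKM, and p-values were adjusted by the Benjamini-Hochberg method over all of them. Differences of single members were also put to an exact permutation test, two-sided. The GC correction took off, for each library, a loess curve (span 0.3) of the deviation of each gene from its mean. The fit was tested on simulated data. Nothing in the labels gives the date or batch of a library.

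The members and lists were chosen with earlier results of these data known. Named genes were the 9 members, Olig2 and Sox10 in any case, the gene with the smallest p in each direction in each other list, genes that share exon bases with a member, and the 10 genes most like the mean of the members. Tcf7l2 was in 2 lists. A further gene that the rule names is not reported here. Car2, Ppp1r14a, Apod, Sept4, Il33, Slc17a7, Prx and Ttr were named in addition, where they were not covered by the rule, after their values were seen.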

Additional observations from a re-analysis of the deposited data

How the results depend on the processing

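Of the 9 members, none passed the cut-off in any of the 12 alternatives that kept all animals, and leaving out 1 animal in turn gave 0 to 1. The gene was Opalin, without PND replicate 1 or without CON replicate 1. With an unadjusted p below 0.05 and no fold the count was 1. Genes past the cut-off numbered 241, and 25 with a pseudocount of 1 FPKM, 59 with a mean of at least 1 FPKM, 569 with no fold and 235 to 388 without 1 animal (388 without CON replicate 2). For the other genes of the lineage the count was 1, and 0 with a pseudocount of 1 FPKM, 6 with no fold and 0 to 2 without 1 animal. The gene counted was Ppp1r14a, and without 1 animal Tspan2, Hapln2 and Il33 also passed at times.

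The unadjusted p of Opalin was below 0.05 in 10 of the 12 alternatives with all animals and in 2 of the 6 that left out an animal. For Mog this was so in 3 of 12 and 2 of 6, for Ugt8a in 2 of 12 and 2 of 6, and for Mag and Ermn in none of the 12 and 1 of 6 each. Leaving out an animal turned the sign of 5 members. The log2 fold change was -0.41 to 0.17 for Mbp (0.00063 without PND replicate 2), -0.0079 to 0.16 for Mobp, -0.31 to 0.55 for Cnp (-0.056 without PND replicate 3), -0.19 to 0.063 for Cldn11 (0.0065 without PND replicate 3) and -0.57 to 0.039 for Mag. No other alternative turned a sign.

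The groups share the replicate numbers 1 to 3, which do not pair the animals. The deviations of animals with the same number correlated at -0.049, -0.45 and 0.027. A fit that took the number as a block put 226 genes past the cut-off, none of them a member, and 361 at an unadjusted p below 0.05 against 569 without the block. Opalin was then no longer below 0.05, at the same log2 fold change of -0.78 and with an SE of 0.34 in place of 0.29. With 3 animals per group the intervals of Cnp, Opalin and Ugt8a reach past the fold of the cut-off, so changes of that size lie within what these data allow for them.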
